A study of Caenorhabditis elegans with 2 samples.

Results

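The tRNA genes of the Caenorhabditis elegans autosomes were examined for binding of ZK185.1, a factor mapped by chromatin immunoprecipitation and sequencing. The members were all genes annotated as tRNA on nuclear chromosomes other than X, which gave 336 of the 612 nuclear tRNA genes, whatever their binding. All 336 matched a RefSeq tRNA gene by identifier and coordinates, and 334 had an amino acid assigned there. Each gene was given the strongest region whose summit lay in its start window, from 1000 bp upstream to 200 bp downstream of its first base. Signal values are the deposited peak heights, whose scale is not stated. The lists differ in level, with medians over all regions of 5.58 in replicate 1 and 7.96 in replicate 2. Values of the 2 replicates are printed side by side below without adjustment for this. A higher or an equal value in 1 of them is therefore not by itself stronger or equal binding.

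The animals were whole hermaphrodite young adults of strain OP474, genotype unc-119(tm4063) III; wgIs474, taken 56.25 h after synchronization as starved L1 larvae. The transgene makes ZK185.1 with a GFP-FLAG tag at its C-terminus, and the chromatin was precipitated through GFP. There were 2 biological replicates in 1 group, all of the same genotype, age and stage, so that no conditions could be compared. The authors' lists on build ce11 are a thresholded list of 2053 peaks that passed a reproducibility step, called thresholded below, and relaxed lists of weaker and stronger regions from the pooled reads and from each replicate. In whole worms, binding in few cells and weak binding in many cannot be told apart.

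Transfer RNA genes are short and are transcribed by RNA polymerase III. Their promoter lies inside the gene: the A box and the B box are bound by TFIIIC, which places TFIIIB, and with it the polymerase, just upstream of the start. Transcription ends in a run of T on the coding strand shortly after the gene. Many tRNA genes exist in identical copies spread over the chromosomes, and many lie inside introns of protein-coding genes.

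The sequences below were chosen because they bear on 3 results: which genes were bound, how copies of 1 gene differed, and what the bound genes had in common. Each is read 5′ to 3′ on the gene's strand from the RefSeq genome, build WBcel235 (ce11), with 20 bases before the gene, which begins at base 21, and 25 bases after it. Capitals mark the last match in the gene to GTTCNANNC, the letters searched for the B box, and the first run of at least 4 T after the gene. The first group is 4 of the copies of a tRNA-Trp gene with the same bases from end to end and different flanks. These are sup-5 (chrIII:8678497-8678568, minus strand), sup-24 (chrIV:15289703-15289774, plus strand), rtw-6 (chrIV:7344156-7344227, minus strand) and sup-29 (chrIV:3681880-3681951, minus strand). Mutant sup-5 is a classical amber suppressor. The first 3 had a thresholded peak and sup-29 had no region in any list.
sup-5: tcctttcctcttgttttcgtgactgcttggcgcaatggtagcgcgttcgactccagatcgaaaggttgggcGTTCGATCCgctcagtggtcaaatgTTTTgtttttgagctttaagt
sup-24: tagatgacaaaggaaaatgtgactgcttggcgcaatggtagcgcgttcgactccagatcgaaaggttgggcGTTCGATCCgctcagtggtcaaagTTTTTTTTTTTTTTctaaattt
rtw-6: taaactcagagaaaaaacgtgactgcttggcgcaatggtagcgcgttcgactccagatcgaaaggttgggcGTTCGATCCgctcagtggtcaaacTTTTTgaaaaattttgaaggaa
sup-29: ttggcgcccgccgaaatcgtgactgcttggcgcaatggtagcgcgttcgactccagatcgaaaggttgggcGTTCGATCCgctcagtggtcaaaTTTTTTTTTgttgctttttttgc

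The second group is a pair of identical tRNA-Thr genes, of which Y39A1A.t1 (chrIII:10624742-10624813, minus strand) had a strong peak and ZK994.t3 (chrV:8496104-8496175, minus strand) had none in the thresholded list, and the strongest peak at a tRNA-Thr gene of another sequence, F52C9.t1 (chrIII:5305905-5305976, plus strand).
Y39A1A.t1: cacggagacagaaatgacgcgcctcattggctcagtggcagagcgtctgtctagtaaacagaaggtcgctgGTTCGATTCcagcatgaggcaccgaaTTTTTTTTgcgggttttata
ZK994.t3: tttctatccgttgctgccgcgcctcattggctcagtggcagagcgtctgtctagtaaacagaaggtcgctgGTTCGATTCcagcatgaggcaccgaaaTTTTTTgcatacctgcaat
F52C9.t1: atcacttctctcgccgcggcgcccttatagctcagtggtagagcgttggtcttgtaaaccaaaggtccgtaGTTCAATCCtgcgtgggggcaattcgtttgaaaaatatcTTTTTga

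The third group shows the letters of the B box at their extremes. W09D6.t2, a tRNA-Pro gene (chrIII:11066848-11066919, minus strand), holds the match and had one of the 15 strongest peaks, and the selenocysteine gene K11H12.t1 (chrIV:658181-658266, plus strand) holds it in a longer gene. T15B12.t1, a tRNA-Met gene (chrIII:5294979-5295050, minus strand), was the only gene without a match that had a thresholded summit, and Y113G7B.t1, a tRNA-His gene (chrV:20219301-20219370, plus strand), had neither a match nor a region in any list.
W09D6.t2: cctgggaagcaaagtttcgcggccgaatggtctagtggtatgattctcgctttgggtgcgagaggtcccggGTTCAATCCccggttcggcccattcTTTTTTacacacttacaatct
K11H12.t1: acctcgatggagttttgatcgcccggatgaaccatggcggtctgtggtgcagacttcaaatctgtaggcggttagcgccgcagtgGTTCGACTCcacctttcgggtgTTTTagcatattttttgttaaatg
T15B12.t1: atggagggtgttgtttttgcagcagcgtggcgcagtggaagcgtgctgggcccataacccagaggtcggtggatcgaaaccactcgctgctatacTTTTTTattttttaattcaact
Y113G7B.t1: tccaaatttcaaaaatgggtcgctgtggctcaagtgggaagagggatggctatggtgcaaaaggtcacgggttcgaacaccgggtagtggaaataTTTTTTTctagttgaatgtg

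Of the 336 genes, 156 (46.4%) were occupied, that is, had a thresholded summit in the start window. Because neighbouring genes can share a peak, these were 133 distinct peaks, or 8.44% of the 1575 thresholded peaks on the autosomes. The same window held a summit at 4.91% of the 40868 autosomal genes of every biotype and at 6.81% of the 17242 autosomal protein-coding genes. In the pooled relaxed list, 230 tRNA genes had a region (68.5%), beside 31.1% of all autosomal genes and 36.0% of the coding genes. A further 70 genes (20.8%) had no region in any of the 4 lists, a share that was not computed for other genes. The first 5 of them in genome order were Y18H1A.t1, Y95B8A.t1, Y92H12A.t1, Y39G10AL.t1 and F33D11.t1.

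Both replicates placed a relaxed region at most of the genes. Replicate 1 had one at 240 genes (71.4%) and replicate 2 at 221 genes (65.8%), a mean of 68.6% ± 4.0 (SD, n = 2). The shares of all autosomal genes in the same lists were 32.3% in replicate 1 and 32.0% in replicate 2, and those of coding genes were 36.2% and 36.5%. The relaxed lists each hold 30000 regions, so the 2053 strongest regions of each replicate were also taken alone. They marked 150 genes in replicate 1 and 139 in replicate 2 (44.6% and 41.4%), where coding genes reached 6.10% and 7.10%. The counts were near that of the thresholded list, but the genes were partly different, with 104 called in both replicates. Counts of genes called in both replicates, in no list, or in 1 list but not in another are not given for other genes. Here and below, they therefore show nothing particular to tRNA genes.

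The regions at tRNA genes stood high in the replicate lists and nearer the middle of the thresholded list. Their median signal was 29.0 in replicate 1 and 38.8 in replicate 2, which was 5.20 and 4.87 times the median of the whole list in each, a mean ratio of 5.04 ± 0.234 (SD, n = 2). For autosomal coding genes the ratio was 1.37 in both replicates. Among thresholded peaks the median was 109 at the 133 peaks of tRNA genes and 89.8 at the other autosomal peaks, and 39 of the 133 (29.3%) were among the strongest 25% of autosomal peaks. Counted per gene with the same window, the medians were closer, at 114 for tRNA genes, 107 for autosomal coding genes and 108 for all autosomal genes other than tRNA genes. Occupied genes had signals from 58.2 to 493, with quartiles at 86.8 and 156.

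The strongest peak in a start window was assigned to ZK994.t2, a tRNA-Lys gene on chromosome V, but its summit stood at −911 bp from the first base of the gene. The replicates gave 222 and 226, and the pooled list 493. The summit was inside pxn-1, a peroxidasin gene, and 32 bp from the start of the snoRNA gene ZK994.7. The nearest other tRNA gene was 4372 bp from it. It therefore stood at the edge of the window and is not a peak at the tRNA gene itself.

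Of the other 14 of the 15 strongest peaks, 13 had the summit within 100 bp of a tRNA gene. F52C9.t1 (tRNA-Thr, chromosome III) had 133 in replicate 1, 88.9 in replicate 2 and 281 pooled, with the summit 9 bp into the gene. At T23F1.t2 (tRNA-Pro, chromosome V) it was 140, 119 and 280, and the same peak covered the convergent neighbour T23F1.t1 (tRNA-Lys), whose start lay 107 bp before the summit. W09D6.t2 (tRNA-Pro, chromosome III) had 95.6, 138 and 267, with the summit at −46 bp. The first gene was higher in replicate 1 and W09D6.t2 in replicate 2, so that the order among them differed between replicates.

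The only peak among these 14 with its summit more than 100 bp away was that of F47G6.t1 (tRNA-Arg, chromosome I), where the summit was at −110 bp and the signal 87.8, 150 and 261. At sup-5 (tRNA-Trp, chromosome III), replicate 1 gave 129, replicate 2 gave 135 and the pooled reads 257, with the summit at −19 bp. B0350.t1 (tRNA-Lys, chromosome IV) had 139, 94.1 and 245, and B0212.t1 (tRNA-Pro, chromosome IV) had 91.8, 99.9 and 238. The summit lay 8 bp past the first base of B0350.t1 and 1 bp past that of B0212.t1. M01E5.t1 (tRNA-Lys, chromosome I) was equal in both replicates to 3 digits, at 126, and had 232 in the pooled list.

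Of the other 6 strongest peaks, 4 were higher in replicate 2. T09B4.t1 (tRNA-Ile) had 70.2 and 63.3 and a pooled signal of 230.5. F56F3.t1 (tRNA-Arg) had 49.8 in replicate 1 and 112 in replicate 2, and Y7A9D.t2 (tRNA-Ala) had 61.6 and 116, with pooled signals of 229 and 228. Replicate 2 was also higher at K07C10.t1 (tRNA-Lys; 59.2 and 93.6, pooled 191) and at Y73B6BL.t1 (tRNA-Val; 60.2 and 117, pooled 189.5). At Y4C6B.t1 (tRNA-Gln) the replicates were close, at 76.6 and 72.2, with a pooled signal of 205.

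Across the 199 genes with a region in both replicates (59.2%), the signals rose together. Spearman's rho was 0.568, and Pearson's r of the log2 signals was 0.5955. These are descriptions across genes, which share the libraries and in part the same regions. Replicate 2 was higher at 134 of the 199 genes, and the median ratio of replicate 2 to replicate 1 was 1.44, close to the ratio of the medians of the lists, 7.96 and 5.58. Within the 145 occupied genes that had both, rho fell to 0.363. Of the other occupied genes, 7 had a region in replicate 1 only and 4 in replicate 2 only.

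**Figure D1:**
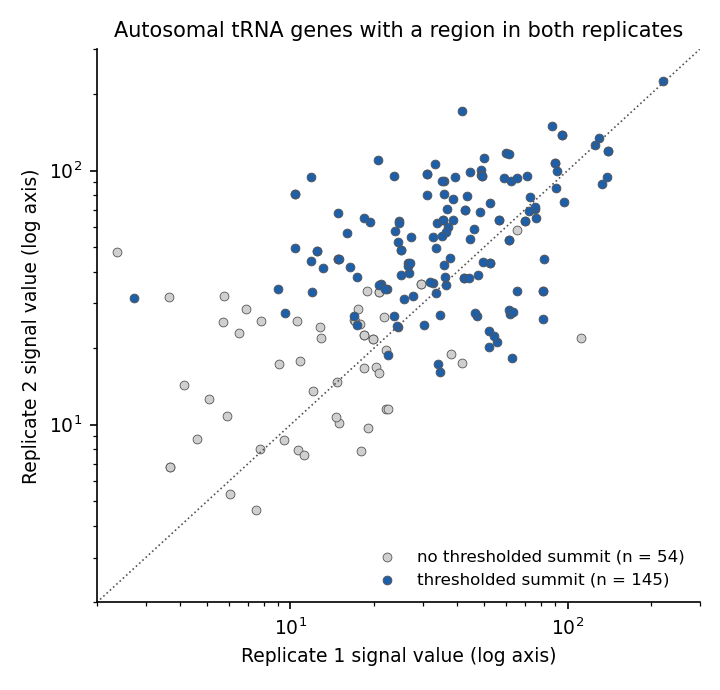
Signal value in replicate 1 (horizontal, log axis) and replicate 2 (vertical, log axis) for the 199 autosomal tRNA genes with a relaxed region in both; blue points are the 145 genes with a thresholded summit and grey points the other 54, and the dotted line marks equal values. Most points lie above the line, as the median ratio of 1.44 gives, and the blue points scatter widely at a given value of replicate 1.

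Among the 145 occupied genes with both replicates, the largest disagreements went both ways. Y37A1B.t1 (tRNA-Ala) had 63.1 in replicate 1 and 18.3 in replicate 2, and Y104H12A.t1 (tRNA-Glu) had 81.4 and 26.0. Y105C5A.t2 (tRNA-Ala) had 2.74 and 31.6, the lowest replicate 1 signal of these 4. At K04C2.t1 (tRNA-Gly) the values 11.9 and 94.5 belonged to different regions, with summits 952 bp apart, because the window reached a neighbouring peak in replicate 2. The same held at F49C5.t3 (tRNA-Leu), where the replicate summits were 937 bp apart.

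Some genes had a replicate region and no pooled region. There were 36 of these, and 6 of them had a region in both replicates. C15C6.t1 (tRNA-Arg) had signals of 65.6 in replicate 1 and 58.4 in replicate 2, with summits 8 and 112 bp past its first base, and no summit in the pooled list. Y22D7AL.t4 (tRNA-Glu) had 112 in replicate 1 alone, and F32B4.t1 (tRNA-Cys) had 93.6 in replicate 1 alone. A pooled region overlapped the window with its summit outside at 3 of the 36 genes. The median of the higher replicate signal was 28.6.

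The summits sat on the tRNA genes. The median position relative to the first base was −1.5 bp, with quartiles at −35.5 and 26 bp, and the medians of the replicate lists were 2 and 0 bp. Of the 156 strongest summits, 67 (42.9%) lay within the gene, 54 lay 1 to 100 bp upstream and 10 lay 1 to 100 bp past its end, so that 131 (84.0%) were at the gene. Counting every thresholded summit rather than the strongest, 138 of the 336 genes (41.1%) had one within 100 bp of the gene. The share of strongest summits at the gene was 78.75% in replicate 1 and 81.0% in replicate 2.

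Coding genes had another profile in the same peaks. At the 1175 autosomal coding genes with a thresholded summit, the median position was −244 bp, with quartiles at −415.5 and −131 bp, and 17.9% of summits lay within 100 bp of the annotated start. At tRNA genes 124 of 156 (79.5%) did, and 97 lay within 50 bp. The replicate medians were −273 ± 19.8 bp for coding genes and 1 ± 1.41 bp for tRNA genes (mean ± SD, n = 2). Trans-splicing can move the annotated start of worm coding genes away from the true one, which does not apply to tRNA genes. Its part in these positions was not tested. Counted per gene, peaks at tRNA genes were 243 bp wide in the median where the summit was at the gene, beside 241 bp at coding genes. Counted once per peak, the median width was 284 bp for the distinct peaks of tRNA genes and 316 bp for all autosomal thresholded peaks.

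**Figure D2:**
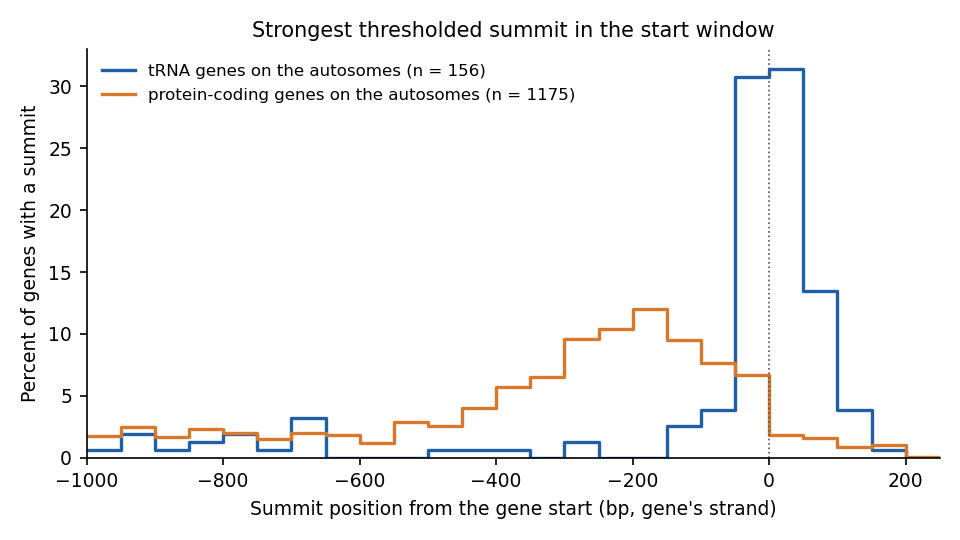
Position of the strongest thresholded summit from the gene start (horizontal, bp on the gene's strand, bins of 50 bp) as percent of the genes with a summit (vertical), for 156 autosomal tRNA genes in blue and 1175 autosomal protein-coding genes in orange; the dotted line is the gene start. The tRNA summits pile up on both sides of the start, with 30.8% in the 50 bp before it and 31.4% in the 50 bp from it, and the coding summits spread upstream of it.

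Summits at the gene, whether in it or within 100 bp of it, stood on the 5′ side of the B box in the median. For the 130 genes with a summit at the gene and a B box match, the summit stood at a median of −46.5 bp from the first base of the match. The match itself began at base 53 of the gene in the median, 21 bases from its end. Of the 131 genes, 95 were isolated, with no other tRNA start within 1000 bp, though neighbours of other kinds were not left out. Among these 95 the median position was 7 bp, and over all 131 it was 9 bp. The 95 make up most of the 131, so these medians could hardly differ, and the genes with a neighbour were not taken alone. The quartiles of the isolated genes were −18.5 and 34 bp.

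For 25 of the 156 occupied genes the strongest summit was more than 100 bp away. At 17 of these it was at another tRNA gene, whether or not a coding start window also held it. At 5 others it was in the start window of a coding gene, and at 3 (ZK994.t2, F47G6.t1 and F49C5.t3) it was at neither. Over all 25, the summit was in a coding start window at 11. The 5 were C12C8.t5 and C12C8.t3 with the window of cbl-1, Y38E10A.t1 with Y38E10A.22, C06G4.t1 with clp-1 and C47E8.t1 with C47E8.11. For C06G4.t1 the summit was nearer the start of the tRNA gene, at −427 bp, than that of clp-1, at −989 bp. The summit at cbl-1 was at −2 bp from the coding start. Of the 25 genes, 7 also had a weaker thresholded summit at the gene itself.

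The letters of the B box were common to nearly all bound genes. A match to GTTCNANNC on the gene's strand was present in 319 of the 336 genes, in 155 of the 156 occupied and 164 of the 180 others. Of the 17 genes without a match, 7 were among the 12 tRNA-Met genes and 4 among the 22 tRNA-Pro genes, and T15B12.t1 was the only occupied one (87.2 pooled, 54.5 in replicate 1, 22.2 in replicate 2). A run of at least 4 T began within 40 bases of the gene's end in 332 genes, at a median of 4 bases after it, in 155 of the occupied and 177 of the other genes. Most genes without a thresholded summit thus carried both features as well.

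The same letters, searched on both strands within 150 bp of the summit, were at 124 of the 125 distinct peaks with the summit at a tRNA gene (99.2%) and at 126 of all 133 (94.7%). Of the 131 genes with the summit at the gene, 130 carry the match themselves. These high shares therefore follow largely from how the peaks were chosen. They were at 133 of the 1429 autosomal thresholded peaks over 1000 bp from any tRNA gene (9.31%). In 21686 pooled regions on the autosomes, far from thresholded summits and tRNA genes, the share was 11.2%. The 2 strict forms GTTCGANNC and GTTCGANTC, which lie within the first, were found at 92 and 59 of the 125 peaks. At the 1429 peaks away from tRNA genes their shares were 3.29% and 0.840%, and in the weak regions 2.26% and 0.812%, so that the order of these groups depends on the letters searched. The differences were not tested.

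Occupancy by amino acid spread around the 46.4% of all autosomal tRNA genes. The highest shares were 5 of 6 genes for Cys, 14 of 21 for Ala and 10 of 15 for Asp. The lowest were 4 of 14 for Asn, 6 of 20 for Thr, 7 of 22 for Pro and 4 of 12 for Met. Between these were 16 of 35 for Gly, 16 of 28 for Lys, 11 of 22 for Leu and 10 of 21 for Ser. The differences between amino acids were not tested, and copies of 1 sequence make up much of each group.

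**Figure D3:**
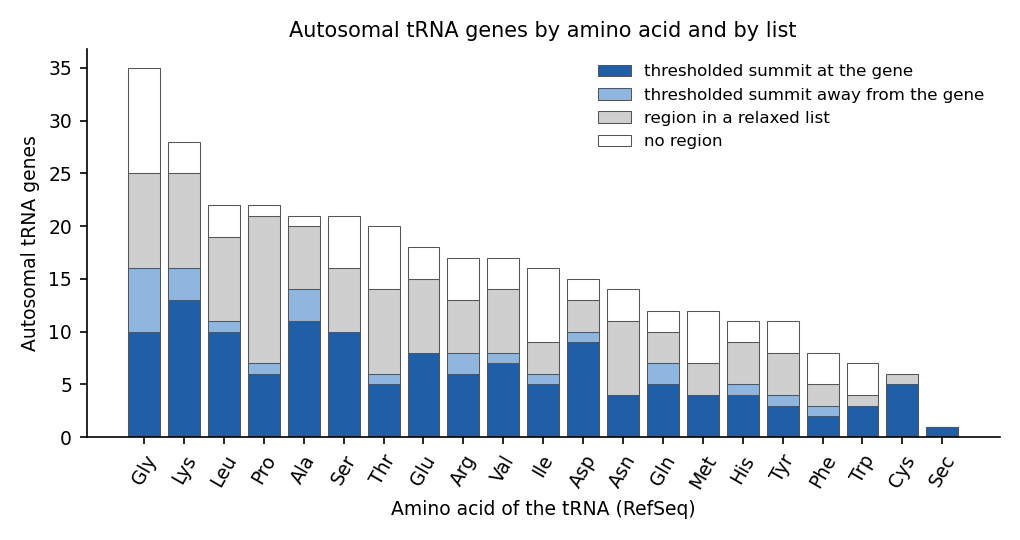
Number of autosomal tRNA genes for each amino acid (vertical), split by whether the strongest thresholded summit was at the gene (dark blue), away from it (light blue), absent with a region in a relaxed list (grey), or absent with no region in any list (white). Every amino acid had occupied genes, and no amino acid other than selenocysteine, with 1 gene, had all of them occupied.

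Low shares came with high peaks in some groups and with low peaks in others. Pro had 7 occupied genes of 22 and a median pooled signal of 238 among them, and Ile had 6 of 16 and 170. Asn had 4 of 14 and a median of 78.7, and its strongest gene, ZK507.t1, reached 87.5 (25.7 in replicate 1, 31.1 in replicate 2). The 5 occupied Cys genes lay between 83.9 and 92.1 apart from C37A2.t1, at 189 (48.8 and 101). K11H12.t1, the gene of the selenocysteine tRNA, which reads a stop codon in a few messages, had a pooled signal of 86.7 (52.2 and 23.5).

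The strongest genes of the other amino acids were at or next to their summits in most cases. They were Y54G2A.t3 for Asp (176.5), F49D11.t1 and its identical neighbour F49D11.t2 for Gly (174), C04A2.t1 for Leu (171), F42A10.t2 for Ser (166) and W09G10.t1 for His (136). Met was led by C14B9.t1 (133), Glu by rte-2 (125), Tyr by C47E8.t1 (120) and Phe by ZC412.t1 (99.2). At C47E8.t1 the strongest summit was at −912 bp and belongs to the window of a coding gene. At rte-2 replicate 1 gave 50.6 and replicate 2 had no region.

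An intron was annotated in 17 genes, of which 8 were occupied (47.1%), beside 148 of the 319 without one (46.4%). Introns of tRNA genes are short and lie next to the anticodon. All 11 tRNA-Tyr genes had one, and 4 of them were occupied: F56F4.t1, ZK1067.t1, T22F7.t1 and C47E8.t1. The median signal of the occupied genes was 109 with an intron and 114 without.

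Identical copies often differed in whether they were occupied. The 336 genes have 137 different sequences, and 43 sequences occur in more than 1 autosomal gene, covering 242 genes of which 122 were occupied. In 30 of these 43 families some copies were occupied and others were not, in 5 all were, and in 8 none was. These counts include summits that lie at a neighbour. With the strongest summit at the gene itself, 100 of the 242 genes remained, and 31 families were mixed, 2 complete and 10 without any. With 122 of 242 genes occupied, groups of several unlike genes would also often be mixed. Such groups were not examined, so the counts show nothing particular to identical copies. Genes with a sequence shared with another nuclear tRNA gene were occupied in 127 of 250 cases (50.8%), and genes with a sequence of their own in 29 of 86 (33.7%). This difference was not tested.

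The tRNA-Trp family, printed above in part, shows the range. It has 6 autosomal copies among 10 in the nuclear genome. The pooled signal was 257 at sup-5 (129 and 135 in the replicates), 116 at sup-24 (49.6 and 43.8) and 74.3 at rtw-6 (16.9 and 26.9). Y4C6B.t2 had 32.5 (10.8 and 17.8), below the lowest thresholded peak, and neither sup-29 nor Y95B8A.t1 had a region in any list. The 6 genes have the same sequence, and in all of them between 82.5% and 87.4% of the 50-base words within 100 bp were unique in the genome.

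Larger families went to either side. In the tRNA-Asp family 9 of 11 autosomal copies were occupied, between 62.2 and 174, and 8 had the strongest summit at the gene. In the tRNA-Ala family these counts were 7 and 6 of 8, with signals between 96.5 and 228. In the tRNA-Thr family of Y39A1A.t1 only that gene, at 184.9 (76.6 and 65.2), was occupied of 8, and ZK994.t3 had 32.6 (12.7 and 24.2). The tRNA-Asn family had 4 of 13, all with the summit at the gene and between 59.2 and 87.5. The largest family, tRNA-Gly, had 11 of 18 copies occupied, between 78.6 and 174, but only 7 with the strongest summit at the gene. C12C8.t5 and C12C8.t3 count through the peak at cbl-1, and the others through a peak at another tRNA gene. The tRNA-Lys family of B0350.t1 had 9 of 15 occupied, between 74.3 and 245, and 7 with the strongest summit at the gene.

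**Figure D4:**
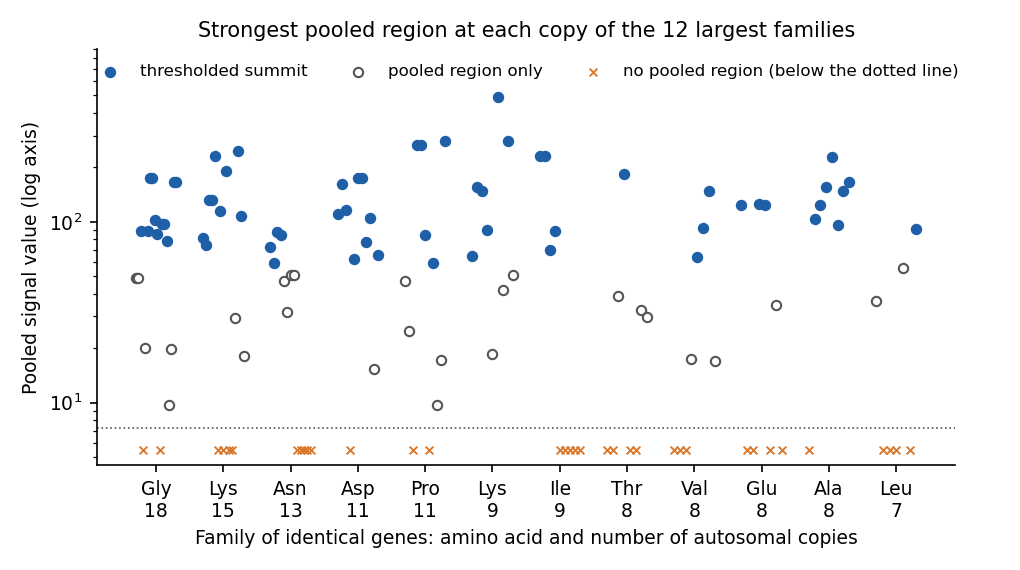
Pooled signal value (vertical, log axis) of the strongest region at each copy of the 12 largest families of identical autosomal tRNA genes; the labels give the amino acid and the number of copies. Blue points have a thresholded summit, open points a pooled region only, and crosses under the dotted line no pooled region. Copies of 1 sequence range from no pooled region to a thresholded peak, as in the tRNA-Thr family with 1 blue point among 8 copies.

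Repeats limit where reads can be placed, and their part was not tested. The share of 50-base words within 100 bp of the gene that occur only there had a median of 84.8% at occupied genes and 84.7% at the others. It was under 50% at 8 genes, and 0 of these were occupied: T22A3.t3 and T22A3.t4, Y51H4A.t2 and Y51H4A.t6, and the 4 F57G8 copies of tRNA-Asn. Of 43 genes whose words were all unique, 14 were occupied and 14 were in no list. Neither the read length nor the treatment of reads with several placements is given in the sources used here.

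Clusters of tRNA genes had a higher share with a peak than genes that stood alone, a difference that was not tested. Chaining starts within 1000 bp of each other gave 282 loci, of which 128 (45.4%) had a thresholded summit. The counts were 100 of 237 genes that stood alone (42.2%), 21 of 38 pairs (55.3%), and all 5 loci of 3 genes and both loci of 4. A locus of several genes has a wider window, so that part of this rise follows from the rule. In 7 of the 45 loci with more than 1 gene, some genes were occupied and others were not.

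The largest locus on chromosome IV holds Y65A5A.t1, Y65A5A.t2 (both tRNA-Ala), Y65A5A.t3 (tRNA-Val) and Y65A5A.t4 (tRNA-His), all on the plus strand. Their strongest peaks had pooled signals of 96.5 at Y65A5A.t1, 148 at Y65A5A.t2 and Y65A5A.t3, and 126 at Y65A5A.t4. The peak of 148 has its summit in Y65A5A.t2, and that of 126 in Y65A5A.t3, so the strongest summit in the window of Y65A5A.t4 was not at that gene. The largest locus on chromosome I is made of 4 identical tRNA-Gly genes, C12C8.t5, C12C8.t2, C12C8.t4 and C12C8.t3. Its peak of 88.9 (25.1 and 48.7) lay between the genes, at the start of cbl-1 and at none of the 4.

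In the loci of 3 genes the peaks fell on some of the genes. At F08G5 a peak of 116 (35.5 and 64.1) sat 12 bp past the first base of F08G5.t1 (tRNA-Arg) and was also the strongest in the windows of F08G5.t2 and F08G5.t3 (both tRNA-Gln). At K04C2 a peak of 148 (39.2 and 94.5) was at K04C2.t3 (tRNA-Lys) and another of 97.7 at K04C2.t2 (tRNA-Gly). At C17D12 the peak of 132.5 was at C17D12.t2 (tRNA-Lys), 60 bp past its first base, and C17D12.t3 (tRNA-Leu) had no thresholded summit. At F49C5 the peak of 155 was at −28 bp of F49C5.t4 (tRNA-Lys), and rte-2 was the occupied gene of its locus.

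Most tRNA genes lay in or near coding genes. Of the 336, 194 were inside a coding gene, 116 on its strand and 78 on the other, and 94 of the 194 (48.5%) were occupied, beside 62 of the 142 (43.7%) outside coding genes. A coding start lay within 1000 bp of 123 genes, of which 69 were occupied (56.1%), and 87 of the other 213 (40.8%) were. The median distance to the nearest coding start was 1269 bp at occupied genes and 1802.5 bp at the others. The windows of the 2 kinds of gene overlap there, and the difference was not tested.

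At 47 of the 156 occupied genes (30.1%) the summit also fell in the start window of a coding gene, so that it counts for both. The size of the window sets this count, which was 28 with 500 bp upstream and 71 with 2000 bp. In 36 of the 47 the summit was at the tRNA gene. In all 131 genes with the summit at the tRNA gene it was nearer to that gene than to any coding start. This follows largely from how the 131 were chosen, within 100 bp of the gene, and does not assign the shared summits. Here and below, nearness was taken to the closest base of a tRNA gene but only to the first base of a coding gene. Of the 25 genes with the summit away, 10 were nearer to a coding start. The signal at the tRNA gene had medians of 118 with a coding window (n = 36) and 108 without (n = 95), and the difference was not tested.

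The strongest shared summits were nearer the tRNA gene in 9 of 10 cases. The peak of T23F1.t1 and T23F1.t2 lay at −484 bp from the start of pqn-71, which encodes a glutamine- and asparagine-rich protein, and −691 bp from that of rocf-1. That of F57F5.t1 (tRNA-Ile; 41.7 and 172, pooled 189) lay at −398 bp from the start of gcy-33, a guanylyl cyclase gene, and −858 bp from that of cpr-9, a cysteine protease gene. At F44A2.t1 (tRNA-Ala; 72.7 and 69.1, pooled 167) the summit was at 17 bp of the tRNA gene and −92 bp of kvs-3, a potassium channel subunit gene, so that both starts lie within the width of a peak.

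The other shared summits were those of Y54G2A.t3 with Y54G2A.45 (176.5), F42A10.t1 and F42A10.t2 with nfm-1, a merlin homologue (166), Y43D4A.t1 and Y43D4A.t2 with Y43D4A.5 (166), K02D7.t1 with grl-26 (161), C43G2.t1 with try-3 (146) and T03E6.t1 with srh-269, a serpentine receptor gene (143). For Y38E10A.t1 the summit was at −254 bp of the tRNA gene and −250 bp of Y38E10A.22 (91.1 and 85.1, pooled 137). Distances from the coding start in the others were between −128 and −564 bp, apart from grl-26, where the summit was 182 bp downstream of the start. The deposited lists do not say which gene a region belongs to.

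By chromosome, a summit was in the window of 41 of 71 genes on IV (57.7%), 32 of 64 on III, 27 of 57 on II (47.4%), 27 of 66 on I (40.9%) and 29 of 78 on V (37.2%). With the summit at the gene the shares were 49.3%, 43.75%, 38.6%, 30.3% and 33.3% in the same order, so I and V changed places. The tRNA genes of chromosome X, given for comparison, had a relaxed region at 88.4% in replicate 1 and 86.2% in replicate 2, a mean of 87.3% ± 1.54 (SD, n = 2), above each autosomal value of 71.4% and 65.8%. The median position of their relaxed summits was −8.5 bp in replicate 1 and −2 bp in replicate 2, and that of their thresholded summits was 4 bp. The difference between X and the autosomes was not tested. The share of other X genes with a relaxed region was not computed. A difference of the whole chromosome therefore cannot be told apart from one of its tRNA genes.

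At the limit of the thresholded list, members just inside and just outside had nearly the same signal. The weakest occupied genes were T22F3.t3 (tRNA-Pro, 58.9), C16D9.t2 (tRNA-Leu, 58.3) and F22B7.t3 (tRNA-Phe, 58.2). The strongest genes without a thresholded summit were Y110A2AL.t1 (tRNA-Leu) and C04F2.t1 (tRNA-Arg), both at 55.9, and F14B4.t2 (tRNA-Pro, 55.8), and the lowest peak of the whole thresholded list was 57.0. The replicate values were also close: C16D9.t2 had 24.2 and 24.5 and C04F2.t1 had 17.8 and 25.02. In all, 74 genes had a pooled region and no thresholded summit, with a median of 30.8, and 55 of these regions had the summit at the gene.

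The protein-coding genes that make and use tRNA were listed by symbol (25, 41 and 31 names in 3 lists), and their own start windows were examined in the same way. Summits lay at 6.77% of all nuclear coding genes. The list called RNA polymerase III machinery also held La and La-related genes. Of its 24 matched genes, 3 had a summit: rpac-19, a subunit shared by RNA polymerases I and III (168), larp-1, a La-related protein gene (366), and ssb-1, the La homologue (79.5). Only rpac-19 among these 3 is a polymerase subunit, so the count is not one of the polymerase alone. Of 28 matched genes for tRNA processing and modification, 7 had one: the Elongator subunits elpc-4 (160) and elpc-1 (70.0), mtcu-2 (107), dus-2 (89.3), trm-1 (71.1), popl-1, an RNase P subunit gene (58.8), and rtcb-1, the tRNA ligase gene (58.7). Of 31 aminoacyl-tRNA synthetase genes, 5 had one: ears-2 (163), aars-1 (87.4), fars-1 (72.3), aars-2 (61.4) and kars-1 (60.6).

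The positions of these summits varied. The summit was at −19 bp from the start of ears-2 and −62 bp from that of elpc-1, but at −987 bp for elpc-4 and −996 bp for popl-1. In the replicates ears-2 had 91.2 and 66.1, and rpac-19 had 57.0 and 83.2.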

How the data were processed

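The deposited data were peak lists on ce11 from 2 replicates of 1 group. Per the deposited manifests, the authors called relaxed lists of 30000 regions, 1 per replicate and 1 from pooled reads, against a control, and derived 2053 peaks thresholded for reproducibility. The signal column is the authors' peak height, deposited with no stated scale, and a second deposited column, the −log10 of a q-value, was used only for an alternative ranking. No source used here gives the aligner, the caller or their settings. The control experiment and the signal tracks were not analysed here, and depth is unknown.

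All 2053 thresholded regions were found unchanged in the pooled list. Genes came from Ensembl release 115, amino acids and sequence from RefSeq, all on WBcel235. Coordinates are 1-based. Windows, loci and letter searches were computed in Python 3.11.15 with pandas 2.3.3, numpy 2.4.6 and scipy 1.17.1, and the window step was tested on simulated regions. Replicates are separate biosamples. With 1 group no conditions could be tested, and no test was made across genes: values are counts, medians and shares beside the same over other genes. The members, lists and naming rule (the 15 strongest peaks, the strongest gene per chromosome and amino acid, the largest loci, the extremes of the replicate ratio, the genes next to the limit, the 10 strongest shared summits and listed genes with a summit) were chosen with earlier results of these data known; other genes were named after their values were seen.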

Additional observations from a re-analysis of the deposited data

How the results depend on the processing

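The count of 156 occupied genes stayed within 1.5 times under 8 of 10 alternatives. It was 103 with the 1026 strongest thresholded peaks and 29 with genes of shared sequence left out, where 86 genes remain, and it ran from 139 to 150 with 1 replicate left out and the 2053 strongest regions of the other used. The 128 occupied loci became 80 and 29 under the same 2 settings and 110 to 123 with 1 replicate left out. The median summit position of −1.5 bp became 5 bp with 500 bp upstream, 9 bp within 100 bp of the gene, 1 bp with each peak given to the nearest start of any gene, 8 bp with the nearest tRNA or coding start, −5 bp with the 1026 strongest peaks, 10 bp without shared sequences, 0 bp with any overlap, 1.5 bp with the closest summit, 5 bp with each peak taken at 1 gene, and −7 to 4 bp with 1 replicate left out. These moves exceed the SD of 1.41 bp between replicates and stay within the length of a tRNA gene. The 47 summits in a coding window became 28 with 500 bp upstream and 71 with 2000 bp, 31 with each peak given to the nearest start, and 11 without shared sequences, and were 42 with either replicate left out. The 199 genes with both replicates became 104 with the 2053 strongest regions of each. The rho of 0.568 became 0.363 within occupied genes, an alternative chosen after seeing the data. Where fewer peaks or genes entered, the count fell by construction; the cause of the other changes was not tested. In all, 47 of 73 alternatives stayed within their limits. No paired analysis was possible because there is 1 group. Depth limits are unknown, since the lists carry no read counts.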
